A study of Homo sapiens with 9 samples.

Results

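The genes described here are the kinase genes *BCR* and *ABL1*, the transcription factor genes *STAT5A* and *STAT5B*, and 6 genes known as STAT5 targets or feedback inhibitors, namely *PIM1*, *PIM2*, *CISH*, *SOCS1*, *SOCS2* and *SOCS3*. They were chosen by name, as genes of the BCR-ABL1 and STAT5 pathway, with earlier results of these data known. All 10 were among the 16612 genes of the count table, and all 10 were among the 16312 genes tested. They were measured by RNA sequencing in HNT34, a human acute myeloid leukemia (AML) cell line with high expression of *EVI1*, the oncogenic transcription factor encoded at the *MECOM* locus. HNT34 cells carry a t(9;22) translocation, which joins *BCR* to *ABL1*.

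Cells of all groups had been transduced with the lentiviral vector pZIP-hEF1a-RFP-Puro, which carries a red fluorescent protein and puromycin resistance, and were collected 3 days after selection. The NT group expressed a non-targeting shRNA, and the other groups expressed the *EVI1*-directed shRNAs sh#16 or sh#87, with 3 libraries per group. The titles of the sh#87 libraries carry the number 87 while another label gives #18, and they were grouped by their titles. A single cell line was used and the labels do not say whether the 3 libraries of a group came from separate cultures, so the p-values below measure the spread between libraries, which may be technical.

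STAT5A and STAT5B are cytoplasmic proteins that are phosphorylated by JAK kinases downstream of cytokine receptors, move to the nucleus and activate transcription. The BCR-ABL1 fusion kinase, known from chronic myeloid leukemia, activates STAT5 without a cytokine. Among the genes that STAT5 activates are those encoding the PIM kinases and the CISH and SOCS proteins, and the latter bind receptors or JAK kinases and dampen the signal.

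STAT5 is known to bind the palindromic motif TTCNNNGAA, in which N is any base. The motif equals its own reverse complement, so a search of 1 strand covers both. It was searched in promoter windows of 300 bases, from 250 bases before to 50 bases after the start site (RefSeq, GRCh38.p14). RefSeq entries were matched for 9 of the 10 genes, all but *SOCS2*, with 12 windows in all. The *CISH* window held 4 matches, and no window of the other 8 genes held any. The windows of *ABL1* and *STAT5B* lie at start sites inside the annotated spans of these genes, and the upstream ends of these spans were not searched. The *CISH* window is shown because it is the promoter in which the letters of the motif occur. It lies at chr3:50611725-50612024 on the minus strand and is printed 5′ to 3′ with the matches in capitals:

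CISH promoter: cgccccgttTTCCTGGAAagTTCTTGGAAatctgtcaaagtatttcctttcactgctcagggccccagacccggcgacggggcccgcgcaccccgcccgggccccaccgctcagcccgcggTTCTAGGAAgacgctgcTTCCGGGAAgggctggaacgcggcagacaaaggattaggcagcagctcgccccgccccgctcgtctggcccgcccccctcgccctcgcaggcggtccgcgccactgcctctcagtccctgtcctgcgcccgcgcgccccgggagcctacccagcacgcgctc

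The 4 matches read TTCCTGGAA, TTCTTGGAA, TTCTAGGAA and TTCCGGGAA and begin 241, 230, 129 and 112 bases before the start site. Of 35116 promoter windows of the same length, 7.66% held at least 1 match and 0.0199%, or 7 windows, held at least 4. A match of letters is a description of the sequence and not a binding site, and the RNA data do not bear on binding.

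Levels are given as CPM, a gene's counts per 1000000 counts of its library, with library sizes scaled by the trimmed mean of M-values (TMM). The libraries held between 17096170 and 43502389 counts, and 3 counts, taken as the limit of detection, stood for between 0.0648 and 0.164 CPM. *MECOM*, the targeted gene, had 440.5 to 571 CPM in NT, 143 to 145 CPM in sh#16 and 106 to 109 CPM in sh#87 libraries, which left 28.6% and 21.3% of the NT level. The NT libraries differed more from each other than the knockdown libraries did, and the common biological coefficient of variation was 24.9% among NT, 3.75% among sh#16 and 6.95% among sh#87 libraries. Mitochondrially encoded genes took 15.9%, 11.6% and 4.69% of the counts in NT replicates 1, 2 and 3. Their share was 2.69% to 2.88% with sh#16 and 4.62% to 5.97% with sh#87. Of 8 myeloid blast markers, 7 were in the table, none was at 0 on average, and their summed level was 2064 to 2153 CPM in NT, 706 to 711 CPM in sh#16 and 399.9 to 407 CPM in sh#87 libraries. The sum was carried by *CD34*, at 731, 116 and 42.4 CPM on average in NT, sh#16 and sh#87, and *PTPRC*, at 855, 142 and 99.99 CPM. *KIT* and *SPI1* were also lower in the knockdown groups, at 85.9, 34.25 and 27.7 CPM and at 75.7, 18.7 and 9.85 CPM. *CD33* was at 42.7, 38.0 and 35.1 CPM, *ANPEP* at 269.7, 284 and 139 CPM, and *CEBPA* was higher in the knockdown groups, at 37.9, 74.7 and 49.5 CPM.

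Each shRNA was compared with NT to ask how the genes moved when *EVI1* was reduced. With sh#16, 5 of the 10 genes passed an adjusted p of 0.01 and all 5 were lower, namely *STAT5A*, *STAT5B*, *PIM1*, *CISH* and *SOCS2*. Of all genes tested, 60.0% passed with sh#16, 30.2% being lower and 29.8% higher. With sh#87, 7 of the 10 genes passed, the same 5 genes and *PIM2* being lower and *SOCS3* higher. Of all genes tested, 67.9% passed with sh#87, 33.6% being lower and 34.3% higher. The share of the 10 genes that passed was thus close to that of the whole table, and the calls of the 10 genes lay mostly on the lower side.

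The median log2 fold change of the 10 genes was -0.49 with sh#16 and -0.73 with sh#87, beside 0.04 and 0.04 over all genes. *STAT5A* alone also reached an absolute log2 fold change of 2, the limit for differentially expressed genes (DEGs), with either shRNA. That limit and the adjusted p were met by 12.8% of all genes with sh#16 (4.84% as lower) and by 18.9% with sh#87 (7.14% as lower). The levels of 7 genes with sh#16 and 8 with sh#87 did not overlap with those of NT, as was so for 74.4% and 78.0% of all genes. Of the 10 genes, 7 lay below NT without overlap with either shRNA, beside 35.8% and 37.6% of all genes. All p-values are from edgeR's quasi-likelihood test with Benjamini-Hochberg adjustment over all genes. The same 3 NT libraries served in both comparisons, which are therefore not independent of each other. In bulk RNA, fewer cells of a kind and less RNA per cell cannot be told apart.

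**Figure D1:**
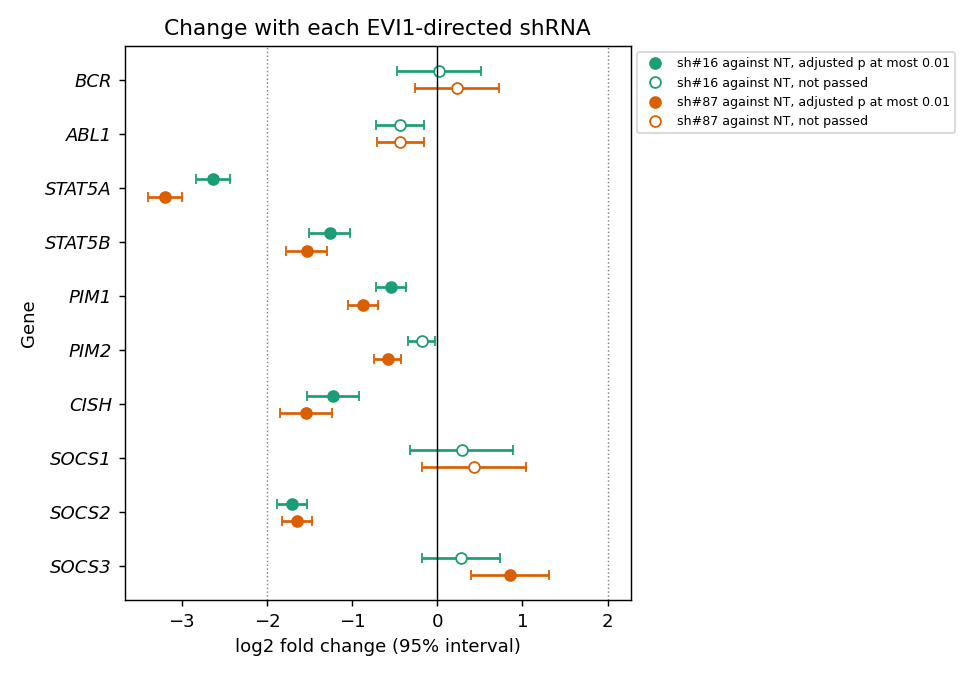
Log2 fold change against NT (horizontal axis) of the 10 genes with sh#16 (green) and sh#87 (orange), with 95% intervals from edgeR's fit, 3 libraries per group. Filled points passed an adjusted p of 0.01, dotted lines mark a log2 fold change of -2 and 2, and STAT5A lies beyond the lower line with either shRNA.

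*STAT5A*, which lies at chr17:42287439-42311943 (GRCh38.p14), showed the most negative fold change of the 10 genes. Its level was 308, 366 and 388 CPM in NT replicates 1, 2 and 3. It was 56.4, 58.5 and 56.4 CPM in sh#16 and 38.3, 39.1 and 38.3 CPM in sh#87 libraries. Every knockdown library was thus far below every NT library, and the sh#87 libraries were below all sh#16 libraries. *STAT5A* fell by 2.63 on the log2 scale with sh#16 (SE 0.09, adjusted p = 4.65e-08) and fell by 3.20 with sh#87 (SE 0.09, adjusted p = 1.11e-08), which left 16.1% and 10.9% of the NT level.

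*STAT5B*, the neighbouring paralog at chr17:42199177-42288370, was at 125, 139 and 171 CPM in NT libraries. It was at 60.6, 58.7 and 62.1 CPM with sh#16 and at 49.6, 50.0 and 50.9 CPM with sh#87. The groups did not overlap, and the gap to NT was narrower than for *STAT5A*. *STAT5B* fell by 1.26 on the log2 scale with sh#16 (SE 0.11, adjusted p = 7.11e-06) and fell by 1.53 with sh#87 (SE 0.11, adjusted p = 1.46e-06), leaving 41.7% and 34.6%.

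The unequal fall of the paralogs was seen within each library as the log2 ratio of *STAT5A* to *STAT5B* counts. The ratio averaged 1.29 ± 0.11 (SD, n = 3) in NT, -0.08 ± 0.07 with sh#16 and -0.38 ± 0.03 with sh#87. The counts of *STAT5A* thus exceeded those of *STAT5B* in NT and lay slightly under them in all 6 knockdown libraries. The mean over the 6 knockdown libraries was 1.53 lower than in the 3 NT libraries on the log2 scale (-1.53, exact permutation test, two-sided p = 0.0238, the smallest that 6 against 3 libraries allow). Any ratio without overlap between NT and knockdown gives this p, and the test pools the libraries of both shRNAs. Sequence is shared between the paralogs, 10.1% of the 100-base windows of the *STAT5A* transcript and 7.45% of those of *STAT5B* being found in the other. The annotated spans of the genes, which lie on opposite strands, also overlap by 932 bases at their upstream ends. The *STAT5B* promoter window searched above lies outside this overlap. Whether the counting used strand is not stated, so a part of the reads could be assigned to either gene.

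*CISH*, whose promoter is printed above, encodes the cytokine-inducible SH2 protein and is used as a marker of STAT5 activity. It lies at chr3:50606489-50611774. Its level was 83.7, 118 and 124 CPM in NT, 44.3, 48.7 and 46.5 CPM in sh#16 and 35.5, 38.4 and 38.1 CPM in sh#87 libraries. The lowest NT library was well above the highest knockdown library. *CISH* fell by 1.22 on the log2 scale with sh#16 (SE 0.13, adjusted p = 3.89e-05) and fell by 1.54 with sh#87 (SE 0.14, adjusted p = 6.61e-06), leaving 42.9% and 34.4%.

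*SOCS2*, a STAT5-induced inhibitor known for its role in growth hormone signaling, lies at chr12:93569969-93626236. It was at 190.0, 202 and 232 CPM in NT libraries. It was at 64.9, 62.3 and 64.6 CPM with sh#16 and at 68.7, 65.3 and 65.4 CPM with sh#87. Both knockdown groups sat near the same level, far under NT. *SOCS2* fell by 1.70 on the log2 scale with sh#16 (SE 0.08, adjusted p = 2.12e-07) and fell by 1.65 with sh#87 (SE 0.08, adjusted p = 1.53e-07), leaving 30.7% and 32.0%. The antisense transcript *SOCS2-AS1* had 36.99 to 48.4 CPM in NT and 6.90 to 10.1 CPM in knockdown libraries, with log2 fold changes of -2.46 (adjusted p = 4.81e-07) and -2.20 (adjusted p = 5.38e-07). Without the strand of the counting, reads of *SOCS2* and *SOCS2-AS1* cannot be told apart where the genes overlap.

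The PIM kinases are serine/threonine kinases that support survival and growth and need no activation by phosphorylation. *PIM1* (chr6:37170152-37175428) was at 421, 483 and 490.5 CPM in NT, at 317, 327 and 315 CPM in sh#16 and at 264, 259.8 and 238 CPM in sh#87 libraries. The 3 groups did not overlap and followed the order NT, sh#16, sh#87. *PIM1* fell by 0.54 on the log2 scale with sh#16 (SE 0.08, adjusted p = 0.000188) and fell by 0.87 with sh#87 (SE 0.08, adjusted p = 6.43e-06), leaving 68.7% and 54.6%.

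*PIM2* (chrX:48913182-48919024) was at 70.4, 78.5 and 70.7 CPM in NT, at 64.7, 65.5 and 63.2 CPM in sh#16 and at 47.1, 51.4 and 48.1 CPM in sh#87 libraries. These groups did not overlap either, although the sh#16 libraries lay close under NT. *PIM2* fell by 0.58 on the log2 scale with sh#87 (SE 0.07, adjusted p = 4.39e-05), leaving 66.8%. With sh#16 its log2 fold change was -0.18 (SE 0.07) and did not pass (adjusted p = 0.0354), although without NT replicate 3 it was -0.23 and passed (0.00919, with up to 0.311 over the alternatives).

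*SOCS1* and *SOCS3* encode inhibitors that bind and block JAK kinases directly. *SOCS3* (chr17:78356778-78360925) was at 23.5, 32.4 and 47.1 CPM in NT, at 40.5, 41.6 and 42.8 CPM in sh#16 and at 64.7, 62.3 and 60.0 CPM in sh#87 libraries. The sh#16 libraries lay inside the NT range, and the sh#87 libraries lay above it. *SOCS3* rose by 0.86 on the log2 scale with sh#87 (SE 0.20, adjusted p = 0.00372), to 181% of NT, while the value with sh#16 was 0.28 (SE 0.20, adjusted p = 0.247). The call with sh#87 did not hold when the fit used only the 2 groups compared (adjusted p = 0.0129) or without sh#87 replicate 1 (0.0138), sh#87 replicate 2 (0.0119) or NT replicate 2 (0.0172), and over all 19 alternatives its adjusted p ran from 7.99e-06 to 0.0172.

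*SOCS1* (chr16:11254417-11256204) had the lowest level of the 10 genes. It was at 5.46, 6.72 and 12.9 CPM in NT, at 9.63, 10.4 and 10.8 CPM in sh#16 and at 12.02, 11.4 and 10.6 CPM in sh#87 libraries, from between 127 and 479 counts. NT replicate 3 was above every knockdown library and the other NT libraries below every one. The log2 fold changes were 0.29 (SE 0.27, adjusted p = 0.358) and 0.43 (SE 0.27, adjusted p = 0.167), neither of which passed. Without NT replicate 3, *SOCS1* passed with sh#16 (0.73, adjusted p = 0.000261) and with sh#87 (0.88, adjusted p = 5.86e-05), as *SOCS3* did with sh#16 (0.55, adjusted p = 0.00147). Over the alternatives the adjusted p of *SOCS1* reached 0.893 with sh#16 and 0.443 with sh#87, and that of *SOCS3* with sh#16 reached 0.771.

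**Figure D2:**
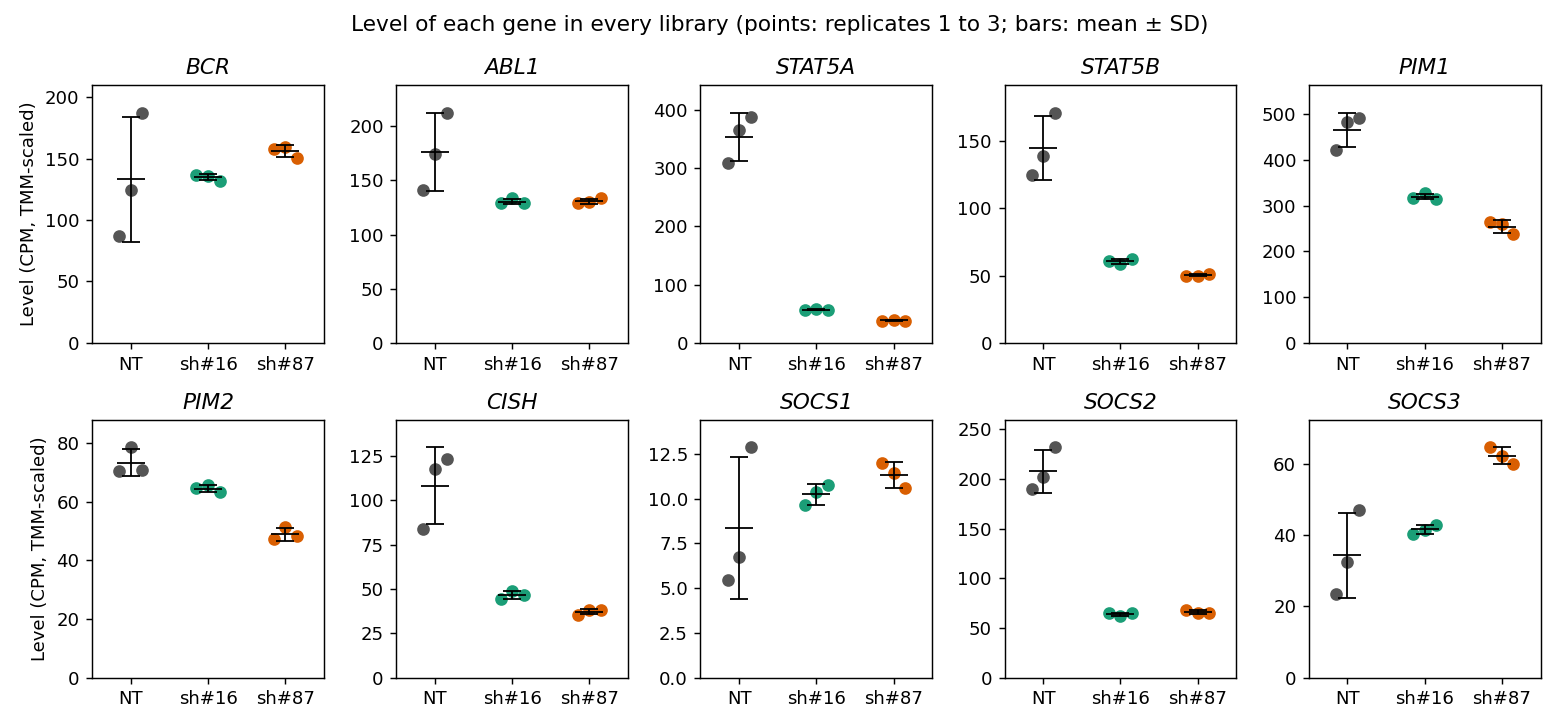
Level of the 10 genes in CPM (vertical axes, linear and from 0) in the 3 NT, 3 sh#16 and 3 sh#87 libraries, with points for replicates 1, 2 and 3 from left to right and bars for mean ± SD. The NT libraries of BCR, SOCS1 and SOCS3 are spread widely, while those of STAT5A, STAT5B, CISH and SOCS2 all lie above the knockdown libraries.

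*BCR* (chr22:23180509-23318037) encodes a protein with kinase and GTPase-activating domains, and *ABL1* (chr9:130713043-130887675) encodes a tyrosine kinase that regulates the cytoskeleton and the response to DNA damage. Reads from a *BCR-ABL1* fusion transcript are counted under *BCR* for its 5′ part and under *ABL1* for its 3′ part. Counts per gene cannot separate the fusion from the unrearranged genes.

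*BCR* was at 87.3, 125 and 187 CPM in NT, at 136, 136 and 132 CPM in sh#16 and at 158, 159.8 and 151 CPM in sh#87 libraries. Both knockdown groups lay inside the NT range. The log2 fold changes were 0.02 with sh#16 (95% interval -0.48 to 0.51, adjusted p = 0.945) and 0.23 with sh#87 (95% interval -0.27 to 0.72, adjusted p = 0.357), so that a change of either sign was not detectable. The NT mean of 133 ± 50.6 CPM (SD, n = 3) depended on which libraries were kept. Without NT replicate 1 the value with sh#16 turned to -0.23 (adjusted p = 0.164), and without NT replicate 3 the value with sh#87 was 0.54 and passed (adjusted p = 0.00158), the adjusted p over the alternatives running from 0.0262 to 0.979 with sh#16 and from 0.00158 to 0.960 with sh#87.

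*ABL1* was at 141, 175 and 213 CPM in NT, at 129, 133 and 129 CPM in sh#16 and at 129, 129.9 and 133 CPM in sh#87 libraries. All 6 knockdown libraries were below the lowest NT library and within a few CPM of each other. The log2 fold changes were -0.43 with sh#16 (SE 0.12, adjusted p = 0.0110) and -0.43 with sh#87 (SE 0.12, adjusted p = 0.0103), which did not pass. The value passed with both shRNAs under DESeq2's own size factors and test (adjusted p = 0.000902 and 0.00113), with relative log expression scaling (0.00579 and 0.00601) and with limma-voom with group weights (0.00441 and 0.00468), and also without NT replicate 1 (-0.59 and -0.57) or NT replicate 3 (-0.30 and -0.29). The adjusted p over the alternatives ran from 0.000135 to 0.0384 with sh#16 and from 0.000124 to 0.0361 with sh#87.

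The log2 ratio of *ABL1* to *BCR* counts within a library averaged 0.45 ± 0.26 (SD, n = 3) in NT, -0.05 ± 0.03 with sh#16 and -0.26 ± 0.07 with sh#87. The ratio was above 0 in each NT library, where it ran from 0.18 to 0.70, and below 0 in each of the 6 knockdown libraries. The difference between knockdown and NT was -0.61 (exact permutation test, two-sided p = 0.0238, the smallest possible). Any ratio without overlap between NT and knockdown gives this p, and the test pools the libraries of both shRNAs. In NT replicates 1, 2 and 3 the ratio was 0.70, 0.49 and 0.18, beside mitochondrial shares of 15.9%, 11.6% and 4.69%. The part of this share in the ratio was not tested. The *BCR*-related pseudogenes were counted apart. *BCRP3* had 3.97 to 5.37 CPM in NT and 0.915 to 1.48 CPM in knockdown libraries, at most 5.67% of the *BCR* counts, with log2 fold changes of -1.79 (adjusted p = 2.82e-05) and -2.11 (adjusted p = 8.75e-06).

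In NT, the levels of *BCR*, *ABL1*, *STAT5A*, *STAT5B*, *PIM1*, *CISH*, *SOCS1*, *SOCS2* and *SOCS3* were lowest in replicate 1 and highest in replicate 3. Replicate 1 had the highest mitochondrial share and replicate 3 the lowest. *MECOM* had the opposite order, at 571, 504 and 440.5 CPM in NT replicates 1, 2 and 3. The share of all genes with either order was not counted. With the mitochondrially encoded genes left out of the fit, 5 of the 10 genes with sh#16 and 7 with sh#87 passed, and no call against NT changed. That fit keeps the same libraries and nearly the same fold changes, so it cannot address differences in quality between the NT libraries. The part of the mitochondrial share in the levels was not tested. For *STAT5A*, *STAT5B*, *PIM1*, *CISH* and *SOCS2* every knockdown library was below each of the 3 NT libraries.

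The shRNAs were compared directly to ask whether the genes differed between them. Of the 10 genes, 2 passed, *STAT5A* and *PIM2*, both lower with sh#87. Of all genes tested, 17.7% passed this comparison, 9.42% as lower. *STAT5A* was lower by a log2 difference of -0.57 (SE 0.08, adjusted p = 0.00148) and *PIM2* by -0.40 (SE 0.07, adjusted p = 0.00273). *MECOM* itself was lower with sh#87 by -0.43 (SE 0.09, adjusted p = 0.00661). *PIM1* lay just outside the threshold, at -0.33 (SE 0.08, adjusted p = 0.0103), and it passed in 8 of 19 alternatives. *PIM2* lost its call when any sh#16 library, or sh#87 replicate 1 or 3, was left out (adjusted p up to 0.0168).

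The other genes did not pass between the shRNAs. The 95% intervals of their log2 differences were -0.51 to -0.03 for *STAT5B*, -0.62 to -0.01 for *CISH*, 0.12 to 1.04 for *SOCS3*, -0.12 to 0.23 for *SOCS2*, -0.28 to 0.28 for *ABL1*, -0.28 to 0.71 for *BCR*, -0.46 to 0.75 for *SOCS1* and -0.51 to -0.16 for *PIM1*. Those of *SOCS2*, *ABL1*, *BCR* and *SOCS1* spanned 0, while those of *STAT5B*, *CISH*, *SOCS3* and *PIM1*, which are not adjusted for the number of genes, did not. All these intervals come from the fit of all 3 groups, whose estimate of the spread includes the more variable NT libraries. With only the shRNA groups in the fit, 7 of the 10 genes passed, among them *BCR* (0.22, adjusted p = 0.000559, edgeR). The levels of 8 of the 10 genes did not overlap between the shRNA groups, beside 65.4% of all genes.

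Levels were compared between genes only per length, as CPM per kilobase of the canonical transcript. In NT the order was *PIM1* at 172, *STAT5A* at 93.9, *SOCS2* at 87.2, *CISH* at 53.7, *PIM2* at 35.3, *ABL1* at 31.6, *STAT5B* at 28.5, *BCR* at 19.6, *SOCS3* at 12.6 and *SOCS1* at 6.75 CPM per kilobase. *STAT5A* and *SOCS2* overlapped over libraries, as did each neighbouring pair from *PIM2* down to *SOCS1*. *PIM1*, a kinase gene, thus stood above all others, and *STAT5A* shared the next place with *SOCS2*.

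With sh#16, *PIM1* was still highest at 118 CPM per kilobase, and *STAT5A* at 15.1 lay near the lower end, overlapping with *SOCS3* at 15.2. With sh#87, *PIM1* was at 93.9 and *STAT5A* at 10.2, with only *STAT5B* at 9.88 and *SOCS1* at 9.16 below it. *PIM2* at 23.6, *ABL1* at 23.4, *BCR* at 23.0 and *SOCS3* at 22.8 formed a run of overlapping neighbours with sh#87. *STAT5A* therefore moved from the upper part of the order to the lower part.

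**Figure D3:**
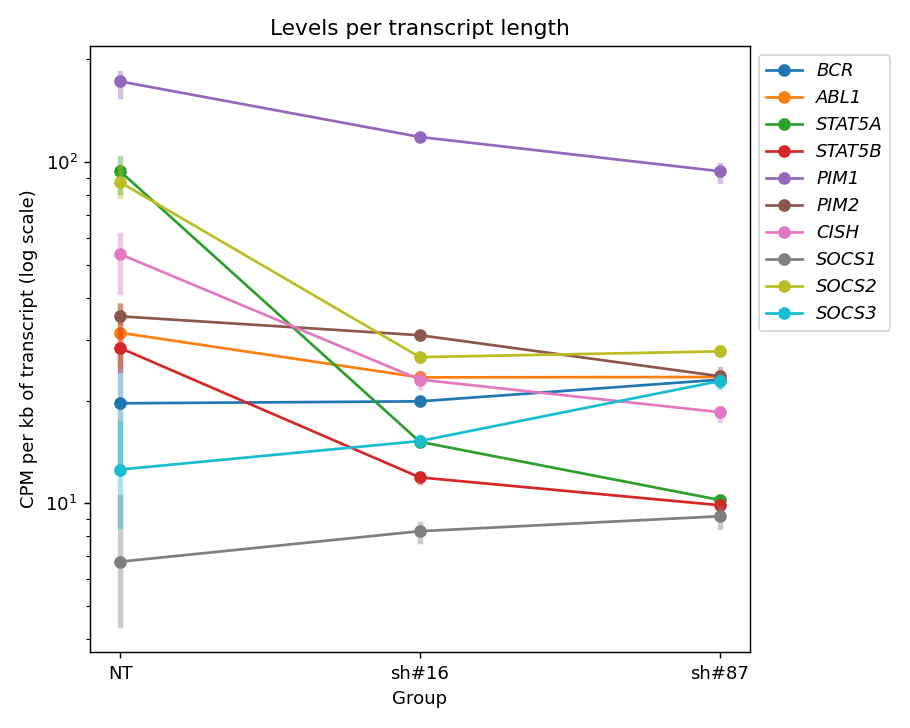
Mean level per transcript length (vertical axis, CPM per kilobase, log scale) of the 10 genes in NT, sh#16 and sh#87, with pale bars from the lowest to the highest of 3 libraries. The line of STAT5A crosses those of SOCS2, CISH, PIM2, ABL1, BCR and, by a narrow margin, SOCS3 between NT and sh#16.

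Further genes of the pathway were counted in lists grouped by known function. Of all genes, 60.0% passed with sh#16 (30.2% lower, 29.8% higher) and 67.9% with sh#87 (33.6% lower, 34.3% higher), and the median log2 fold change was 0.04 with each. The list of JAK kinases and receptor chains that activate STAT5 held 18 genes, among them the cytokine gene *TSLP*, which was not tested. Of the 13 tested, 7 were lower and 4 higher with sh#16, and 8 were lower and 3 higher with sh#87, so that 84.6% passed with each. *JAK3*, the kinase of the common gamma chain receptors, fell from 4.82 ± 2.22 CPM in NT (SD, n = 3) to 0.79 ± 0.03 with sh#16 and 0.71 ± 0.30 with sh#87, with log2 fold changes of -2.62 (adjusted p = 0.000248) and -2.75 (adjusted p = 0.000178). *IL2RB*, a chain of the interleukin-2 and interleukin-15 receptors, rose by 3.24 and 1.54. The median log2 fold change of the list was -0.65 with sh#16 and -0.59 with sh#87.

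The other STAT genes were 5, of which 2 were higher and 1 lower with each shRNA, or 60.0% passing. *STAT4*, which acts downstream of interleukin-12, rose from 1.16 ± 0.20 CPM in NT (SD, n = 3) to 9.56 ± 0.45 with sh#16 and 10.7 ± 0.35 with sh#87, with log2 fold changes of 3.05 (adjusted p = 1.79e-07) and 3.21 (adjusted p = 7.98e-08). *STAT2*, which acts in interferon signaling, rose by 0.96 and 1.58, and *STAT6*, which acts downstream of interleukin-4, fell (-1.13 and -1.27). The STAT family thus held genes of both directions, and the list median was 0.08 and 0.16.

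Of 16 other SOCS, PIM and inhibitor genes, 7 were lower and 5 higher with sh#16, and 6 were lower and 5 higher with sh#87, so that 75.0% and 68.8% passed. *PTPN6*, the phosphatase SHP-1, fell from 215 ± 19.7 CPM (SD, n = 3) to 61.7 ± 2.94 and 39.1 ± 1.53 CPM, with log2 fold changes of -1.80 and -2.46. *SOCS6* fell as well (-1.69 and -2.28), and *SH2B3*, the adaptor LNK that dampens JAK2 signaling, also fell (-1.25 and -1.29). The list median was -0.14 and -0.19.

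Of 16 adaptors and substrates of BCR-ABL1, 6 were lower and 4 higher with sh#16, and 8 were lower and 3 higher with sh#87. The shares of 62.5% and 68.8% that passed were close to those of all genes. The Src family kinase gene *LYN* fell from 974 ± 128 CPM (SD, n = 3) to 361 ± 3.23 and 213 ± 6.86 CPM, with log2 fold changes of -1.43 and -2.19. *DOK2*, a docking protein gene, had log2 fold changes of -1.69 and -2.75. The list median was -0.31 and -0.33.

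Of 16 further genes known as STAT5 targets, 12 were tested, and 5 were lower and 5 higher with each shRNA (83.3% passing), and the median was 0.28 and 0.23. *LTB*, a lymphotoxin gene, fell (log2 fold changes of -4.14 and -5.23), and *DUSP5*, a phosphatase of ERK, rose by 3.24 and 3.33, from 8.88 ± 2.46 CPM (SD, n = 3) to 84.3 ± 2.40 and 89.9 ± 5.96 CPM. *CCND1*, encoding cyclin D1, had 36 to 40 counts per NT library and at most 3 in any knockdown library, which is at the limit of detection.

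**Figure D4:**
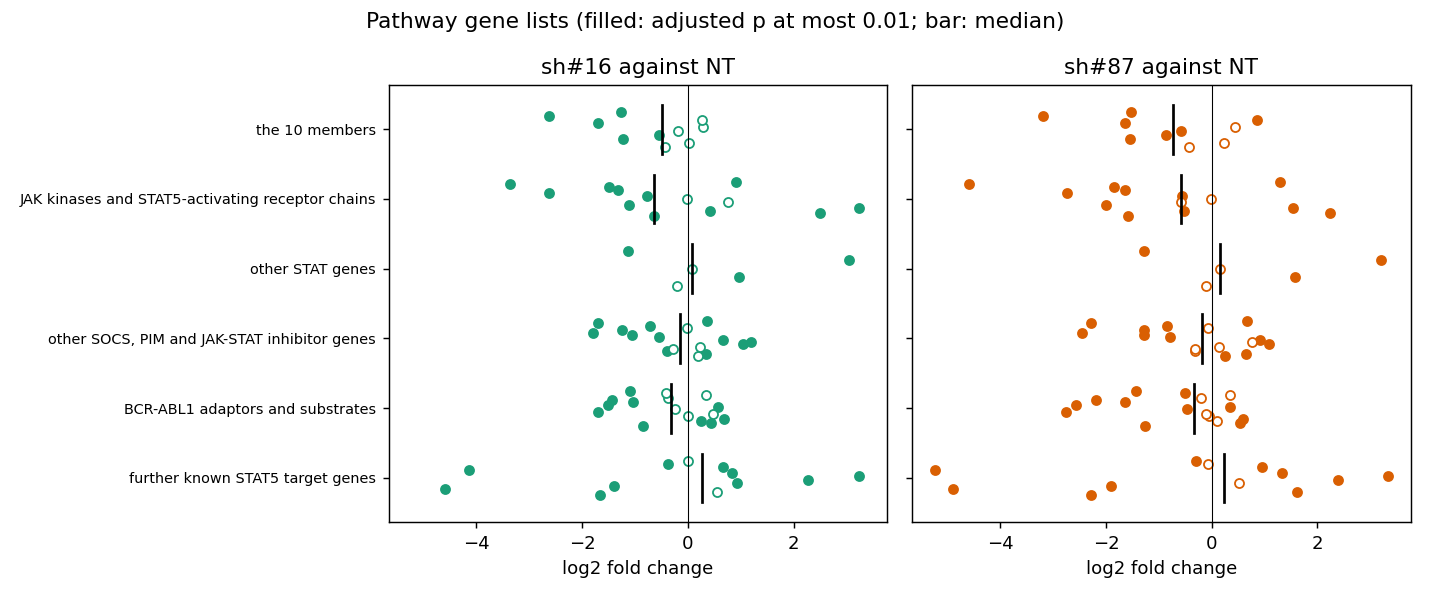
Log2 fold change (horizontal axes) of each tested gene of the pathway lists (rows) with sh#16 (left) and sh#87 (right), with filled points for an adjusted p of at most 0.01 and bars for list medians. CCND1, the lowest point of the bottom row with sh#16, is drawn at its fitted value although its knockdown counts were at the limit of detection.

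Genes with a like pattern over the 9 libraries were sought among 11118 genes by the root mean square of the differences in centred log2 CPM. The genes closest to *BCR* were *MRC2* (0.0518), *TSNARE1* (0.0537) and *SIPA1* (0.0579). Closest to *ABL1* were *LRP5* (0.0351), *ZMYM3* (0.0397) and *PCIF1* (0.0423), and closest to *CISH* were *NDST1* (0.0732), *NCSTN* (0.0838) and *FLNC* (0.0959). These genes were picked for their likeness, which is a description of these libraries.

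Markers of other cell types were summed beside these results. In NT, sh#16 and sh#87 libraries, 2 T cell markers in the table summed to 7.27 to 10.1, 5.49 to 6.46 and 3.35 to 3.93 CPM, and 3 B cell markers to 21.1 to 48.5, 5.70 to 6.18 and 2.64 to 3.22 CPM. The fibroblast gene *COL1A1* was at 0.0433 to 0.172, 25.9 to 26.9 and 28.1 to 30.2 CPM, and the epithelial gene *KRT8* at 39.7 to 45.0, 16.3 to 18.7 and 15.6 to 16.9 CPM. The part of these markers in the results was not tested.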

How the data were processed

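Total RNA was prepared with the TruSeq stranded mRNA kit and sequenced as single reads. The authors deposited estimated counts per gene and library in 1 table. The column names point to salmon output, whereas the methods name STAR gene counts with ENSEMBL annotation on GRCh38, and the submitters' processing notes name FastQC and STAR. All values were whole numbers, so none was rounded. Because the column names were shifted by 1 position, they were assigned to the 9 value columns in their order.

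All 16312 genes kept by filterByExpr were fitted with edgeR 4.0.16 (R 4.3.3) in 1 model of 3 groups (TMM, quasi-likelihood test, Benjamini-Hochberg adjustment). A gene passed where its adjusted p did not exceed 0.01, and a DEG also had a log2 fold change of 2 or more in size. CPM per kilobase used the canonical transcript's length. The limit of detection was set at 3 counts in a library and reflects counting error alone. Ratios were tested by exact permutation of libraries. The script was tested on simulated data with the same spread in every group, which does not cover the unequal spread of these libraries.

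The 10 genes and the pathway and marker lists were chosen with earlier results of these data known. From each pathway list, the 3 genes with the largest mean absolute log2 fold change that passed with both shRNAs in the same direction were named if the higher group averaged 1 CPM or more. Some of these are not reported here. The genes closest in pattern were named for BCR, ABL1 and CISH, among genes of at least 5 CPM. Alternatives were DESeq2 1.42.0, limma-voom (limma 3.58.1), other scaling, filters and thresholds, a replicate block, only the groups compared, and each library left out. Promoters came from RefSeq (GRCh38.p14). No batch was given in the labels.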

Additional observations from a re-analysis of the deposited data

Results flagged for a closer look

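A direct test of sh#87 against sh#16 marked *STAT5A* and *PIM2*, whose levels differed between the shRNAs. The log2 difference of *STAT5A* was -0.57 (adjusted p = 0.00148, edgeR), with every sh#87 library below every sh#16 library. That of *PIM2* was -0.40 (adjusted p = 0.00273, edgeR), again with no overlap of the groups. *MECOM* was also lower with sh#87, at -0.43 on the log2 scale, and its part in these differences was not tested.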

How the results depend on the processing

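Of 570 fold changes of the 10 genes recomputed under 19 alternatives in 3 comparisons, 518 kept their direction and side of the threshold, 37 gained and 9 lost the threshold, and 6 turned direction. *STAT5A*, *STAT5B*, *PIM1*, *CISH* and *SOCS2* passed as lower with both shRNAs under all 19. With single libraries left out, *BCR* with sh#16 turned to -0.23 without NT replicate 1 and -0.03 without NT replicate 2 (highest 0.33), *BCR* with sh#87 to -0.0079 without NT replicate 1 (highest 0.54), and *ABL1* between the shRNAs to -0.0061, -0.0043 and -0.0099 without sh#16 replicate 1, sh#16 replicate 3 and sh#87 replicate 3 (highest 0.019). With single libraries left out, 5 to 9 of the 10 genes passed with sh#16 (9 without NT replicate 3), 6 to 10 with sh#87 (10 without NT replicate 3) and 1 to 5 between the shRNAs. Between the shRNAs, 6 of the 10 genes passed with limma-voom with group weights and 7 with only these groups in the fit. Over all genes, 2890 passed between the shRNAs, 7390 with limma-voom, 7534 with only these groups, 5498 at an adjusted p of 0.05 and 1098 to 5326 without single libraries, and the 74 DEGs became 119 with limma-voom and 47 to 86 without single libraries (47 without sh#16 replicate 2, 48 without sh#87 replicate 2). The cause of these shifts was not tested. The log2 difference in the *ABL1* to *BCR* ratio ran from -0.74 to -0.49 and that of *STAT5A* to *STAT5B* from -1.58 to -1.47 with single libraries left out, and without 1 NT library the smallest possible p is 0.0714. Upper-quartile scaling moved the median over all genes, on the log2 scale, from 0.04 to 0.14 with sh#16 and to 0.15 with sh#87, and changed no call of the 10 genes. Same-numbered libraries did not deviate together (9 correlations, -0.137 to 0.0826). This does not exclude a pairing by number, as differences between libraries of a group, wide in NT, can hide a shared deviation. The replicate block left 5, 7 and 2 of the 10 genes passing in the 3 comparisons, with 1588 genes in all between the shRNAs. Depth limited *CCND1*, with at most 3 counts in knockdown libraries. *SOCS1* had 127 to 479 counts per library, and its coefficient of variation was 47.5% in NT, beside 38.0% for *BCR*.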

Other observations

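Among 10373 tested genes with a promoter window, 7 held at least 3 matches to TTCNNNGAA, namely *CISH*, *BCL6*, *IL3RA*, *ZNF112*, *ZNF225*, *ZNF230* and *ZNF230-DT*. *BCL6*, a transcriptional repressor gene named after its values were seen, was at 0.651 CPM on average in NT, 0.957 with sh#16 and 2.01 with sh#87. Its log2 fold change was 0.55 with sh#16 (adjusted p = 0.0670, edgeR) and 1.62 with sh#87 (adjusted p = 0.000170, edgeR). *IL3RA*, the interleukin-3 receptor alpha chain gene, was at 16.9, 28.4 and 20.2 CPM, with log2 fold changes of 0.75 (adjusted p = 0.000378, edgeR) and 0.26 (adjusted p = 0.0710, edgeR).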
